A study of Mus musculus with 8 samples.

Results

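Translation initiation and elongation factors were followed as a family across the cell types and proliferative states of the adult mouse dentate gyrus. The family held every gene whose symbol in the count table began with Eif and a digit from 1 to 6, or with Eef and a 1 or 2, and ended in lower-case letters and digits. The rule used symbols only and took 69 of the 31058 listed features. The members received 1714399 of 135486534 unique molecular identifiers (UMIs, 1 for each captured transcript), or 1.27% of the total. Eef1a1, which carries aminoacyl-tRNA to the ribosome, gave 18.8% of the family's UMIs, and Eif1, which guards the choice of start codon, gave 14.3%. Eif2c5 and Eif4e1b were listed at 0 UMIs, which allows up to 3 each (counting error only), and Eif4ebp3 had 1 UMI.

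Initiation factors bring the start tRNA, the small ribosomal subunit and the capped messenger together: eIF2 delivers the start tRNA, the eIF4F group binds the cap and unwinds the leader, eIF3 holds the complex, and eIF5 and eIF5B join the subunits. Elongation factors then feed tRNAs to the ribosome (eEF1A with its exchange factors eEF1B) and move it along the messenger (eEF2). Many of these messengers carry a terminal oligopyrimidine tract and are controlled together downstream of mTORC1. Quiescent neural stem cells are known for low protein synthesis, which increases when they enter the cell cycle.

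The samples were 8 single-cell libraries of hippocampal cells from 7 experiments, each made from several pooled mice of both sexes. All mice carried a tamoxifen-inducible creERT2 recombinase linked to Mki67 (Ki67), a tdTomato reporter that the recombinase switches on, and Nestin-GFP, so that every group compared here shared these alleles, a mixed background and 6 days of tamoxifen by gavage. Mice were 1 month (1 experiment), 2 months (3) or 6 months old (3) by the labels, the study's methods giving an age range that starts there for the last group, and most libraries mixed sorted GFP+tdT+ and GFP+tdT- cells. 1 experiment at 2 months was split over 2 libraries, one of GFP+tdT- cells and one of GFP+tdT+ with GFP-tdT- cells, which were summed as 1 replicate. Libraries of 2 months used Version 2 of the 10x kit and the others Version 3, so that for the 2-month experiments age and chemistry cannot be told apart.

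Of 26036 barcodes, 24376 passed the cell filters (over 500 genes, under 10% mitochondrial UMIs), 3414 were set aside as doublets because they carried 3 or more markers of each of 2 lineages, and 17593 were assigned to a type by 8-gene marker lists. The median was 1960 to 7636.5 UMIs per cell over the libraries, and 59 barcode sequences occurred in more than 1 library. 1 library at 6 months held 1587 of the doublets among 5164 cells. The gated classes used here were 1371 neural stem cell-like (NSC-like) cells, 1116 astrocyte-like, 849 intermediate progenitor-like, 1760 neuroblast-like, 4259 oligodendrocyte precursor-like (OPC-like), 114 newly formed and 6071 myelinating oligodendrocyte-like, 410 endothelial-like, 877 mural-like and 696 microglia-like cells. All 8 genes of a class's own list were found in over 10% of the cells of the NSC-like, astrocyte-like, intermediate progenitor-like, neuroblast-like, OPC-like and myelinating classes. Of the cells, 2540 were at the marker cut and 1894 were near it. No member was among the marker, phase or index genes that set the classes.

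Values are CPM (UMI counts scaled to a common library size) of the summed cells of 1 experiment and class, given as mean ± SD over experiments, with lowest, median and highest where there were more than 5. UMIs count transcript ends, so that levels are not scaled by length. The replicates are pools of mice. The main fits compared classes within experiments, so that a p-value sets the difference between classes against its variation between pools. A cell was called cycling when its Seurat phase was outside G1 or when it held more than 1 (Version 2) or more than 2 (Version 3) of 9 replication index genes (Mcm2 to Mcm7, Ccne1, Ccne2, Pcna). Intermediate progenitor-like cells were the exception: those called cycling here are the 645 of 849 called by the index genes alone.

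The first pair shown is that of Eef1a2, the member with the largest log2 fold change between OPC-like and myelinating cells: Eef1a1 and Eef1a2 encode alternative forms of eEF1A. Eef1a1 lies at chr9:78478449-78489151 on the minus strand and Eef1a2 at chr2:181147653-181157014 on the minus strand (GRCm38, GENCODE M21). Their coding sequences, of 1386 and 1389 bases, were the same at 79.9% of positions. The first 120 coding bases of each transcript are printed 5′ to 3′, with the 18 bases that differ in capitals. All 18 were at the last position of a codon.
Eef1a1: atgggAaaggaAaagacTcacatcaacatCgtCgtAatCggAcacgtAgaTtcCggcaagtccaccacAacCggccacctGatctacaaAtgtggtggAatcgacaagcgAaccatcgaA
Eef1a2: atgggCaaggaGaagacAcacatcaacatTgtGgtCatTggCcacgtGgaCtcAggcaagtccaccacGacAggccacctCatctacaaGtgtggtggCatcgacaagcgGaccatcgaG
The transcripts shared 0 of 1745 windows of 50 bases. Of the pairs checked, Eif3j1 and Eif3j2 shared 39.43% of windows, none of them in the last 500 bases.

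Promoters are shown because members of the family rose together in several classes. Of the 69 members, 53 had a RefSeq promoter of 250 bases before to 50 after the start (GRCm38.p6). The palindrome CACGTG, the core of the E-box that MYC-family factors can bind, was in 11 of these 53 (20.8%), in 538 of 4796 promoters of genes tested in the index-based comparison of NSC-like cells (11.2%) and in 1957 of all 27025 (7.2%). It was in 5 of 20 promoters of members that rose in index-called cycling NSC-like cells and in 3 of 23 of tested members that did not. TATAAA, the core of a TATA box, was searched on both strands, is not contained in CACGTG, and was in 5 of the 53 (9.4%), in 6.7% of those tested promoters and in 14.2% of all promoters. Stretches of 5 of the 11 promoters with CACGTG follow, with both motifs in capitals. The promoters of Eif1b, Eif4h, Eif4g1, Eef2k, Eif5a2 and Eef1akmt4 also held CACGTG and are not printed. That of Eef2, the translocation factor, runs from 120 bases before its start to 29 after it (chr10:81176511-81176660, plus strand).
Eef2: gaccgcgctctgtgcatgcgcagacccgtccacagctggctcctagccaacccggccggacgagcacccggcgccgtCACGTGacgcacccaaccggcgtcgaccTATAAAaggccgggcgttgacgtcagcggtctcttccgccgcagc
Eif3a, chr19:60790655-60790682, minus strand: cgcgagggaatCACGTGgttccttcctt
Eif3f, chr7:108934336-108934363, plus strand: aagatatgattCACGTGgTATAAAttta
Eif3k, chr7:28981916-28981943, minus strand: tggaaggaaatCACGTGgtagacaaaaa
Eif4a1, chr11:69672596-69672623, minus strand: gatcgcctccgCACGTGtaaaggtgctg
A match describes these letters only.

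The share of UMIs given to the family differed between some classes by more than the spread between experiments, while other classes overlapped. Non-cycling OPC-like minus quiescent NSC-like cells gave a mean difference of -0.00423 percentage points, with the OPC-like share higher in 4 experiments and lower in 3. Quiescent NSC-like cells gave 1.04% ± 0.0562 (SD, n = 7, range 0.970 to 1.12%), and astrocyte-like cells 0.711% ± 0.0562 (n = 7, range 0.622 to 0.801%), lower in 7 of 7 experiments. Cycling intermediate progenitor-like cells gave 1.86% ± 0.111 (n = 7) and neuroblast-like cells 1.87% ± 0.180 (n = 7, range 1.63 to 2.16%), both above quiescent NSC-like cells in 7 of 7 experiments. These 2 neighbours did not differ beyond their spread: the neuroblast-like share was the higher in 3 experiments and the lower in 4. In order, newly formed oligodendrocyte-like cells gave 1.39% ± 0.101 (n = 5: 1.55, 1.39, 1.39, 1.28 and 1.33%), microglia-like cells 1.33% and 1.22% (n = 2), myelinating oligodendrocyte-like cells 1.18% ± 0.0354 (n = 6), endothelial-like cells 1.18% ± 0.0823 (n = 7) and mural-like cells 1.12% ± 0.0530 (n = 7). Each of those 5 overlapped its neighbours in that order, and newly formed cells did not overlap the 2 neurogenic classes above them.

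**Figure D1:**
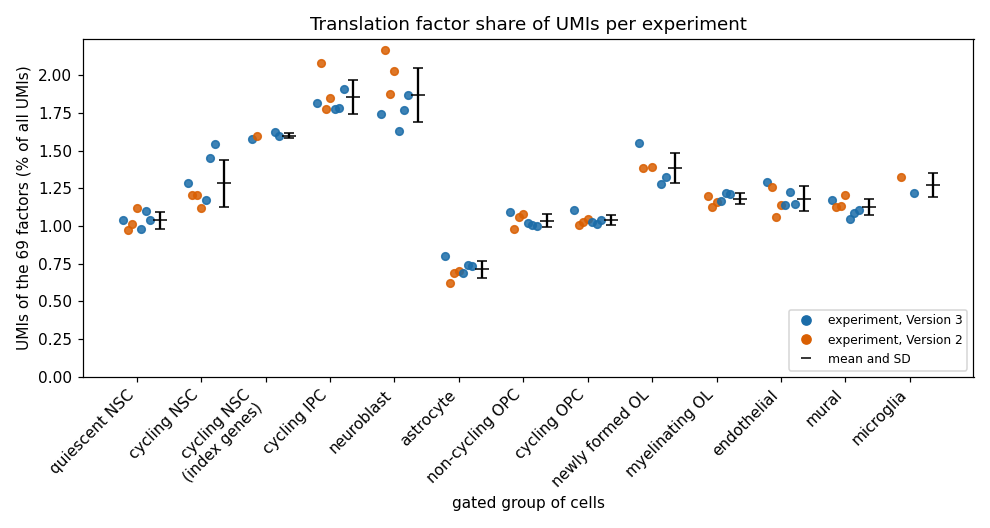
Share of all UMIs (%) given to the 69 factors in each gated class, with points for experiments coloured by chemistry version and bars for the mean and SD. Astrocyte-like cells sat lowest, at 0.622 to 0.801%, and intermediate progenitor-like and neuroblast-like cells highest, up to 2.16%.

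Within the NSC-like class the family share moved with the state call, and by how much depended on the call. Cycling NSC-like cells by phase or index gave 1.28% ± 0.157 (n = 7, lowest 1.12%, median 1.21%, highest 1.54%), above the quiescent cells in 6 of 7 experiments. By index genes alone, 4 experiments had enough cells and gave 1.58, 1.60, 1.62 and 1.60%, higher in 4 of 4 by a mean of 0.560 percentage points. OPC-like cells gave 1.03% ± 0.0437 when not cycling and 1.04% ± 0.0345 when cycling (n = 7 each), a mean difference of 0.00398 percentage points with the cycling cells higher in 5 of 7. Pooled over experiments, intermediate progenitor-like cells gave 1.92% when called by neither phase nor index (48 cells) and 1.88% when called by both (639 cells). Neuroblast-like cells gave 1.83% (980 cells) and 1.84% (120 cells) in the same order. The high share of these 2 classes was thus also present in their cells not called cycling.

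The 2 calls picked different cells. Of the NSC-like cells, 879 were called by neither rule, 373 by phase only, 12 by index only and 107 by both. Mki67, the marker of dividing cells, was at 0, 7.38, 0 and 166.7 CPM in those sets, and the family's share was 1.04, 1.12, 0.979 and 1.62%. The phase call also took 30.7% of myelinating oligodendrocyte-like cells, which do not divide, with no index call. Both calls are therefore reported. Depth moved with them too: the median UMI count per cell was 4644 in the first set and 9843 in the last, and its part in the result was not tested.

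Of the 69 members, 42 were tested between cycling and quiescent NSC-like cells by phase or index (detected by a UMI in 20% or more of the cells on one side, with 492 and 879 cells). By edgeR's quasi-likelihood test with the experiment as a block and Benjamini-Hochberg adjustment over all genes, 18 of the 42 rose (42.9%), against 14.3% of all genes tested, and 0 fell, against 13.4%. The median log2 fold change was 0.31 over the members and -0.01 over all genes. Of the 42, 22 had an unadjusted p under 0.05, and DESeq2 called 12, all higher (628 of 3770 over all genes). The share of all genes with an unadjusted p under 0.05 was not computed, here or below, so that such counts are not a result about the members.

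The members that rose came from several steps of the process. Among elongation factors, a list that here and below took in Eef1e1 by its symbol, 4 of the 6 tested rose. They were led by Eef1b2, the exchange factor that recharges eEF1A. Eef1b2 went from 132.5, 232.1 and 379.9 CPM (lowest, median, highest) in quiescent cells to 200.9, 384.5 and 783.5 CPM in cycling cells, a log2 fold change of 0.85 ± 0.13 (SE; edgeR adjusted p = 1.26e-05; higher in 7 of 7). Eef1a1 went from 988, 1338 and 1775 CPM to 1232, 2183 and 3873 CPM (0.64 ± 0.11; edgeR adjusted p = 0.000101; higher in 7 of 7). The ranges of both genes overlapped between states, while within each experiment the cycling cells were the higher. Eef2, the translocation factor whose promoter is printed above, rose by 0.56 ± 0.11 (edgeR adjusted p = 0.000452), and Eef1g, a scaffold of the exchange complex, by 0.44 ± 0.13 (edgeR adjusted p = 0.00972), each in 7 of 7 experiments. Eef1d, another exchange factor subunit, was at 439 ± 122 and 465 ± 66.0 CPM and did not pass the test (0.15 ± 0.11; edgeR adjusted p = 0.342).

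Of the 13 eIF3 subunits tested, 7 rose, with Eif3l at 0.70 ± 0.15 and Eif3d, a subunit that can itself contact the cap, at 0.60 ± 0.15 (edgeR adjusted p = 0.00111 and 0.00467). The eIF4F list here and below took in relatives and cofactors of its subunits, among them Eif4a3, Eif4b and Eif4h. Of 9 tested members of that list 3 rose: the helicase Eif4a1 (350 to 489 CPM, 0.56 ± 0.12, edgeR adjusted p = 0.000525), its exon-junction relative Eif4a3 (0.58 ± 0.16) and the cap-binding protein Eif4e (0.57 ± 0.15). The eIF2 subunits Eif2s1 and Eif2s2 rose, the former by 0.68 ± 0.16 (edgeR adjusted p = 0.00188) although its CPM was higher in 4 of 7 experiments. Eif5a, which rescues stalled ribosomes, rose by 0.43 ± 0.12 (425 ± 27.3 to 561 ± 120 CPM; edgeR adjusted p = 0.0083). Eif4a2, the paralogue of Eif4a1, had a value of 0.00 ± 0.12, Eif1b 0.00 ± 0.14 and Eif1 -0.08 ± 0.10.

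These calls were sensitive to the cells and libraries used. Without the experiment as a block 0 of the 42 were called (195 of 3770 over all genes, against 1045 in the main fit). A stricter marker gate gave 3 of 43 (299 of 4140 over all genes). Leaving out the 1-month experiment gave 10 of 40 (609 of 3147), and the 3 Version 2 experiments alone 2 of 29 (93 of 1915). Every member called in those fits was higher in cycling cells, and the calls over all genes were fewer too.

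With index genes alone, 106 cycling cells from 4 experiments stood against 1049 others, and 54 members were tested. By edgeR's quasi-likelihood test 26 rose (48.1%, against 22.2% of all genes tested) and 3 fell (5.56%, against 21.6%), and all 18 members that rose under the first call rose here. Every index-called cell was also cycling by the first call, so that the 2 results share cells and are not independent. Eef1a1 was at 3445, 3458, 3592 and 4092 CPM in the cycling cells and at 1788 ± 244 CPM in the others of the same experiments (log2 fold change 0.91 ± 0.08; edgeR adjusted p = 2.29e-13). Eef1b2 was at 922, 489, 1025 and 712 CPM against 329 ± 69.5 CPM (1.13 ± 0.10), the lowest being the Version 2 experiment. Eif4a1 was at 627, 858, 650.4 and 728 CPM against 329 ± 51.5 CPM (1.01 ± 0.10; edgeR adjusted p = 2.9e-12). For these 3 genes the cycling cells were the higher in 4 of 4 experiments. Among eIF3 subunits 10 of 13 rose, in the eIF4F list 6 of 10 and among elongation factors 4 of 6.

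The 3 members that fell were Eif4a2, Eif1 and Eif2s3y. Eif4a2 was at 122, 369.6, 172 and 223 CPM and fell by 0.39 ± 0.14 on the log2 scale (edgeR adjusted p = 0.0185; lower in 4 of 4), while Eif1 fell by 0.25 ± 0.09 (1691 to 1538 CPM, edgeR adjusted p = 0.0167). Eif2s3y, the Y-linked copy of the eIF2 gamma subunit, fell by 0.75 ± 0.27 (edgeR adjusted p = 0.0209), in pools whose mix of sexes is not resolved here. Eif4ebp1, a repressor that binds eIF4E until mTORC1 phosphorylates it, showed the largest log2 fold change, 1.41 ± 0.36 (edgeR adjusted p = 0.0012), from 19.1 CPM to 56.2, 47.7, 59.1 and 8.27 CPM. It was higher in 3 of 4 experiments, and the value of 8.27 CPM rests on 2 UMIs. Eif4ebp1 was not tested under the first call, where it did not pass the filter on the share of cells. The median UMI count per cell of the index-called cycling cells was 11137.5, 4507, 11248 and 15228 in the 4 experiments. That of NSC-like cells quiescent by the first call was 5603, 2622, 6716 and 6226 in the same experiments. The part of this depth in passing the filter was not tested. Eef1d had a value of 0.02 ± 0.10.

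Markers of the next stage moved with this call. The summed intermediate progenitor list was at 336 to 723 CPM (median 566) in quiescent NSC-like cells and at 769 to 1490 CPM (median 1172) in index-called cycling ones, where 2 of its 8 genes were at 0. The neuroblast list went from 11.6 to 106 CPM to 73.9 to 322 CPM, and the astrocyte list had a median of 518 CPM in the former and 129 CPM in the latter. The part of these cells in the factor levels was not tested.

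In OPC-like cells, which also divide in the adult, the same call gave 954 cycling and 3305 non-cycling cells. Of 46 members tested, 2 rose (4.35%), against 7.29% of all genes, and 0 fell, against 3.17%, by edgeR's quasi-likelihood test, while 7 had an unadjusted p under 0.05 and DESeq2 called 0. The 2 were Eif4a1, from 417 ± 78.8 to 454 ± 74.3 CPM (0.16 ± 0.05; edgeR adjusted p = 0.0336; higher in 6 of 7), and Eif1ad, a relative of eIF1A (0.38 ± 0.13; edgeR adjusted p = 0.039; higher in 4 of 7). Both calls were lost without the 1-month experiment and without either of 2 experiments at 6 months, taken 1 at a time.

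Eef1a1 was at 870.5, 1163 and 1462 CPM (lowest, median, highest) in non-cycling and 872.5, 1201 and 1373 CPM in cycling OPC-like cells, with a log2 fold change of 0.03 ± 0.04 (edgeR adjusted p = 0.761). Eef1b2 had 0.09 ± 0.06 and Eef2 0.03 ± 0.06. With index genes alone 53 members were tested, and 3 rose (5.66%, against 7.49% of all genes) and 0 fell (against 4.09%), with 7 at an unadjusted p under 0.05. These were the same pair and Eif2s1, and the index-called cells were part of the first call. The OPC-like cells called by both rules held Mki67 at 107.2 CPM, and their family share was 1.07%, against 1.02% in those called by neither.

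The difference between the 2 lineages was tested directly as an interaction. That fit held a single term per experiment for both lineages, so that the pairing of states within each lineage was not modelled. Of 47 members 11 had a larger cycling effect in NSC-like than in OPC-like cells (23.4%), against 5.1% of all genes in that direction, and 0 a smaller one, against 2.98%, by edgeR's quasi-likelihood test, while 21 had an unadjusted p under 0.05 and DESeq2 called 4. The differences of log2 fold changes were largest for Eef1b2 (0.86 ± 0.16; edgeR adjusted p = 0.00058), Eef1a1 (0.65 ± 0.15; edgeR adjusted p = 0.00566) and Eif1ax, the X-linked eIF1A (0.64 ± 0.16; edgeR adjusted p = 0.00809). The other 8 were Eif2s1, Eif3l, Eef2, Eif4e, Eif4a1, Eif3f, Eif3e and Eif3i. The Eif1ax difference was -0.20 with the Version 2 experiments alone, and it was not called without the 1-month experiment or without either of 2 experiments at 6 months. Leaving out 1 experiment at a time gave 2 to 8 calls, of which 2 to 6 were among the 11, 0 were called with the 3 Version 2 experiments alone and 3 with Version 3 alone. Over all genes those fits called 159 to 415, 10 and 347, against 423 in the main fit. With index genes alone 22 of 56 differed upwards (39.3%, against 12.4% of all genes), all 11 among them, and 0 downwards (against 11.1%), with 30 at an unadjusted p under 0.05. The index-called cells were again part of the first call, so that these 2 counts are not independent.

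**Figure D2:**
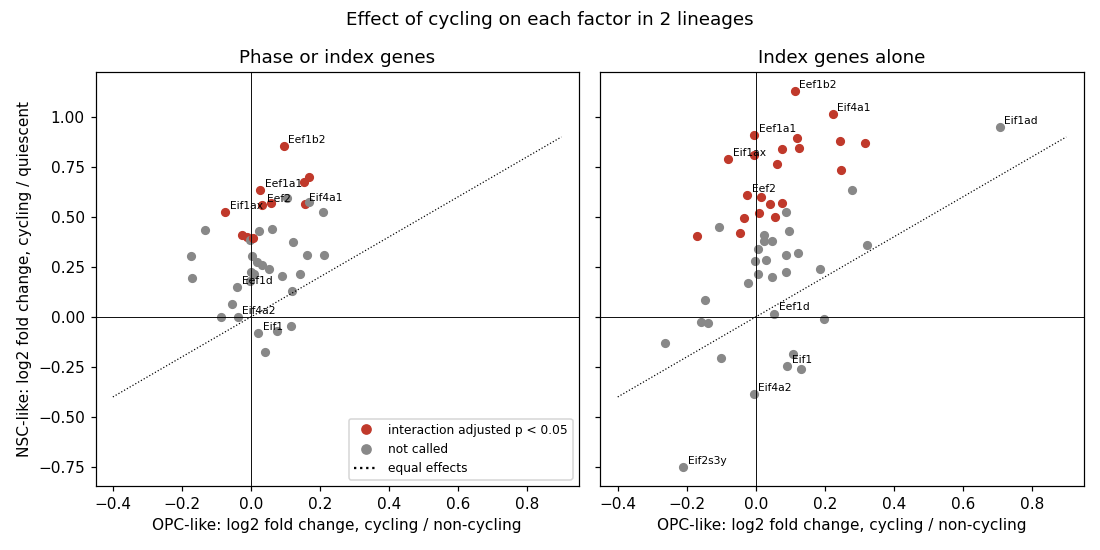
Each point is a factor, with the log2 fold change of cycling over non-cycling OPC-like cells across and of cycling over quiescent NSC-like cells upwards, under both calls of cycling. Red points differed between lineages by the interaction test, and they lie above the dotted line of equal effects. That test called 11 members under the first call (left) and 22 with index genes alone (right). Only factors tested in both lineages are drawn, so that a called member may be missing.

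Intermediate progenitor-like cells, the amplifying daughters of stem cells, were compared with quiescent NSC-like cells in a comparison added after the gated cells had been counted. Of 54 members tested, 32 rose (59.3%, against 35% of all genes) and 6 fell (11.1%, against 32.8%) by edgeR's quasi-likelihood test. Eif4a1 rose by 1.54 ± 0.10, from 260, 352 and 476 CPM to 858.5, 1058 and 1475 CPM (edgeR adjusted p = 9.07e-15), with no overlap between the classes. Eef1b2 (1.41 ± 0.11), Eif2s1 (1.31 ± 0.13), Eef1a1 (1.31 ± 0.10), Eef2 (1.28 ± 0.13) and Eif3d (1.23 ± 0.14) followed, each higher in 7 of 7 experiments. Of the 13 eIF3 subunits 10 rose. Of the 5 tested subunits of eIF2B, the exchange factor of eIF2, 2 were called higher (Eif2b3 by 1.00 ± 0.24 and Eif2b2 by 0.54 ± 0.21), where 35% of all genes were. Between cycling and quiescent NSC-like cells 1 eIF2B subunit was tested, so that the others passed the filter here only through the intermediate progenitor side. The median UMI count per cell (median over experiments) was 8709.5 on that side and 3826 in quiescent NSC-like cells. The part of this depth in passing the filter was not tested.

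Of the 6 members that fell, Eif3j1, the loosely bound subunit of eIF3, did so by the most: it fell by 0.99 ± 0.13, from 119, 145 and 221 CPM to 70.0, 90.7 and 97.4 CPM, with no overlap. Eef1d fell by 0.69 ± 0.11 (439 ± 122 to 305 ± 34.1 CPM; edgeR adjusted p = 1.67e-06) and Eif4a2 by 0.46 ± 0.10 (lower in 7 of 7). The methyltransferases Eef2kmt and Eef1akmt1, which modify eEF2 and eEF1A, fell by 0.87 ± 0.24 and 0.49 ± 0.15, and Eif2s3y by 0.56 ± 0.20. By total UMIs Eef1akmt1 (-0.25, edgeR adjusted p = 0.141) and Eif2s3y (-0.31, edgeR adjusted p = 0.178) were not called, and none of these 3 was called with DESeq2. Without the 1-month experiment Eef1akmt1 lost its call and Eef2kmt and Eif2s3y did not pass the filter. Single experiments also decided other calls: Eif2b2 was not called without the 1-month experiment or experiment 2 at 6 months, Eef2kmt without any 1 of the 3 experiments at 6 months, and Eif2s3y without experiment 1 at 2 months or experiment 2 or 3 at 6 months. Eif4a2 was not called in the fit without the replicate block or without the filter on the share of cells. Exons of Eif3j1 overlap those of Gm47314 and exons of Eef1d those of Naprt, each on the same strand, so that reads of these neighbours may be shared.

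Neuroblast-like cells, immature neurons that have left the stem cell state, were compared with quiescent NSC-like cells. All 1760 neuroblast-like cells were used, 780 of them called cycling by phase or index, while cycling cells were left out of the NSC-like side. Of 45 members tested, 31 rose (68.9%, against 41.9% of all genes) and 4 fell (8.89%, against 35.5%) by edgeR's quasi-likelihood test. The median log2 fold change was 0.47 over the members and 0.12 over all genes. Eef2 rose by 2.16 ± 0.14 (edgeR adjusted p = 1.01e-13), from 147, 265 and 367 CPM to 731, 1481 and 2445 CPM, and Eef1a1 by 1.51 ± 0.09, from 988, 1338 and 1775 CPM to 2980, 4710 and 5446 CPM (edgeR adjusted p = 9.68e-14). For both genes the lowest neuroblast-like value was above the highest quiescent one. Eif4b, a cofactor of the helicase, rose by 1.38 ± 0.17, Eif4a1 by 1.37 ± 0.10, Eif3h by 1.36 ± 0.11 and Eif3e by 1.29 ± 0.12. Eif4a2 rose here by 0.89 ± 0.10 and Eif4ebp2, the form of the eIF4E repressor found in neurons, by 0.48 ± 0.21 (edgeR adjusted p = 0.0414). The Eif4ebp2 call was lost in 7 of the 14 alternatives that tested it (highest adjusted p 0.16), and these included DESeq2, the fit without the block, and those without either of 2 experiments at 2 months or 1 at 6 months, while without the 1-month experiment it did not pass the filter.

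Eef1d fell by 1.66 ± 0.12 (edgeR adjusted p = 1.03e-12), from 336, 361.5 and 670.5 CPM to 115, 154 and 167 CPM, lower in 7 of 7, although the other exchange factor subunits Eef1b2 and Eef1g rose by 1.20 ± 0.10 and 1.04 ± 0.11. Eif3j1 fell by 0.96 ± 0.11, while 10 of the 13 eIF3 subunits tested rose. Eef1akmt1 fell by 0.57 ± 0.13 and Eif1 by 0.35 ± 0.08 (1751 ± 169 to 1479 ± 95.3 CPM). Each of the 4 was also called lower with the Version 3 experiments alone, and Eef1d had -2.00 in Version 2 and -1.65 in Version 3 experiments.

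**Figure D3:**
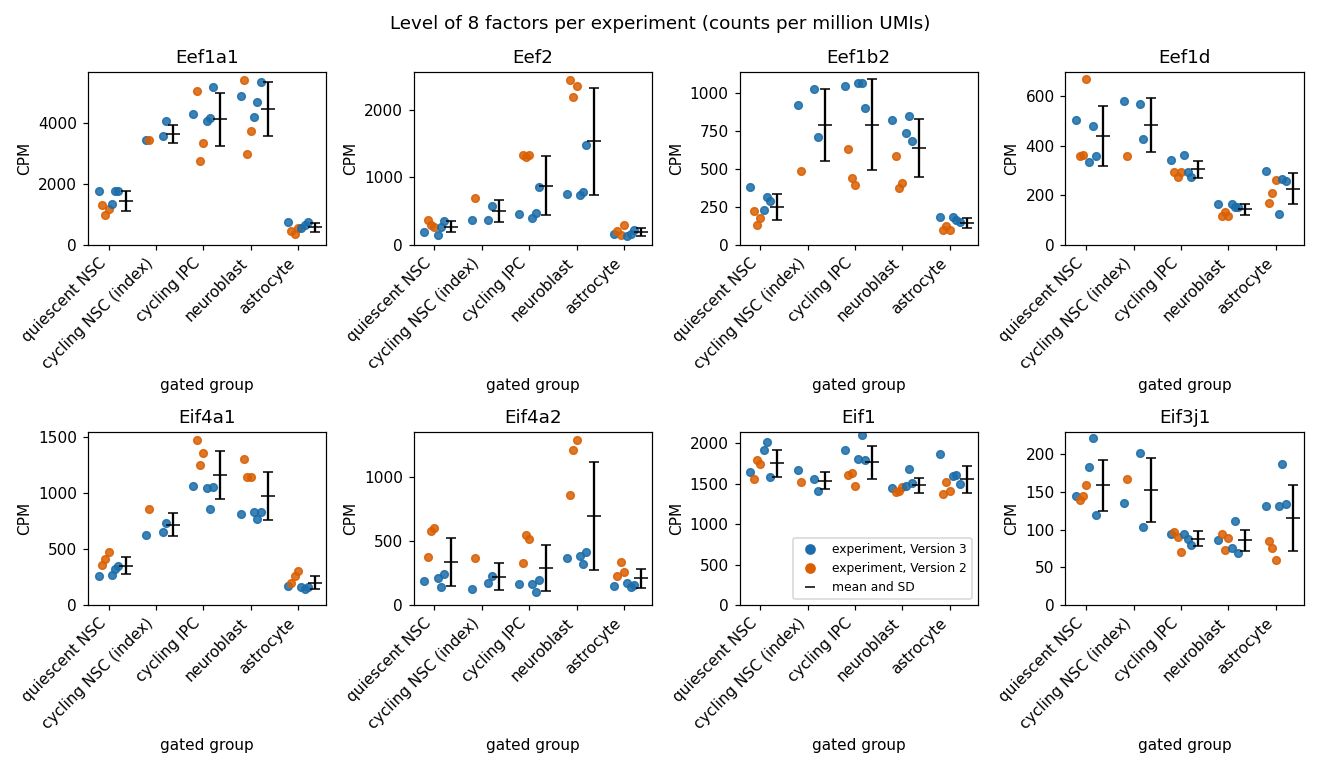
Level (CPM) of 8 factors in quiescent NSC-like, index-called cycling NSC-like, cycling intermediate progenitor-like (IPC), neuroblast-like and astrocyte-like cells, with points for experiments coloured by chemistry version and bars for the mean and SD. Eef1a1, Eef2, Eef1b2 and Eif4a1 are higher in the later neurogenic classes, Eef1d and Eif3j1 are lower in neuroblast-like cells, and Eef2 and Eif4a2 separate by chemistry in neuroblast-like cells.

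Astrocyte-like cells, the glia most like quiescent stem cells, had lower levels than those. Of 39 members tested, 19 fell (48.7%, against 24% of all genes) and 1 rose (2.56%, against 25.6%) by edgeR's quasi-likelihood test. All 6 tested members of the elongation factor list, Eef1e1 among them, fell, with Eef1a1 from 988, 1338 and 1775 CPM to 363, 562 and 764 CPM without overlap (-1.14 ± 0.09; edgeR adjusted p = 1.54e-11). Eif3e fell by 0.76 ± 0.14, Eef1b2 by 0.73 ± 0.12, Eef1d by 0.66 ± 0.11, Eif4a1 by 0.66 ± 0.11 and Eif5a by 0.53 ± 0.10 (edgeR adjusted p = 0.0001). The exception was Eif4g1, the scaffold that bridges cap and ribosome, which rose by 0.73 ± 0.16 (64.0 ± 27.4 to 89.5 ± 17.9 CPM; edgeR adjusted p = 0.000281; higher in 6 of 7). The Eif1 value was 0.04 ± 0.09. Scaling by total UMIs in place of TMM shifted the median of all genes from -0.03 to -0.23 and gave 26 falling and 1 rising member. Over all genes it called 2003 of 3405, with the share of all calls that were higher at 32.3% in place of 51.6%. Without the block 10 were called (1120 of 3405 over all genes, against 1688 in the main fit). The NSC marker list was still at 642 to 4307 CPM (median 3563) in these cells.

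Paralogue pairs were compared by the share of their joint UMIs. Eef1a2, the eEF1A of mature neurons and muscle, made up 10.7% ± 2.81 of Eef1a UMIs in non-cycling OPC-like cells (n = 7, range 5.67 to 14.1%) and 10.6% ± 3.14 in cycling ones (range 7.34 to 15.4%). The next class was astrocyte-like cells at 0.918% ± 0.828 and then neuroblast-like cells at 0.634% ± 0.320, with ranges that overlapped. Quiescent NSC-like cells had 0.302% ± 0.305 and myelinating oligodendrocyte-like cells 0.0655% ± 0.0384 (n = 6), and in endothelial-like cells there were 0 of 2404 UMIs, which allows a share of up to 0.125% (counting error only). The OPC-like range lay above that of every other class measured. Mature neuron-like cells (37 gated) were too few to be used and are not among these classes.

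In CPM, Eef1a2 was at 75.3, 137 and 195 (lowest, median, highest) in non-cycling OPC-like cells and 86.2, 126 and 168 in cycling ones (log2 fold change -0.12 ± 0.07; edgeR adjusted p = 0.296). In Version 3 libraries 60.1% of non-cycling OPC-like cells held an Eef1a2 UMI (median 6769 UMIs per cell), against 0.737% of myelinating oligodendrocyte-like cells (median 5532) and 17.2% of neuroblast-like cells (median 7408). In Version 2 libraries, with a median of 1871 UMIs per cell, 18.8% of non-cycling OPC-like cells did. The mature neuron marker list was at 101 to 169 CPM in non-cycling OPC-like cells and at 273 to 403 CPM in neuroblast-like cells, where Eef1a2 was at 26.4 ± 8.37 CPM.

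Other pairs were compared in the same way. Eif4a2 made up 46.1% ± 9.59 of Eif4a1 and Eif4a2 UMIs in quiescent NSC-like cells, 40.2% ± 14.7 in cycling ones by phase or index (n = 7, range 26.4 to 67.3%, overlapping the quiescent cells), 22.7% ± 5.77 in those called by index genes alone (n = 4), 18.5% ± 7.54 in cycling intermediate progenitor-like cells and 38.5% ± 9.93 in neuroblast-like cells. The index-called group held 1 Version 2 experiment and the quiescent group 3. In quiescent NSC-like cells Eif4a2 averaged 516.7 CPM with Version 2 and 196.9 CPM with Version 3, and Eif4a1 415.5 and 300.6 CPM. The part of this mix of chemistry in the index-called share was not tested. Eif1b made up 32.6% ± 2.12 of the Eif1 pair in non-cycling OPC-like cells and 27.9% ± 5.14 in newly formed oligodendrocyte-like cells (n = 5), against 6.94% ± 0.951 in myelinating cells, with no overlap between OPC-like (lowest 30.1%) and myelinating cells (highest 8.29%). Eif4ebp2 made up 96.4% ± 1.99 of the Eif4ebp1 and Eif4ebp2 UMIs in neuroblast-like cells and 53.0% ± 11.7 in cycling intermediate progenitor-like cells, as Eif4ebp1 went from 51.8 ± 20.4 CPM in the latter to 1.99 ± 1.20 CPM in the former. Eif5a2 made up 0.412% ± 0.229 of the Eif5a pair in neuroblast-like cells and 3.18% ± 1.06 in non-cycling OPC-like cells. Eif2ak3, the kinase that phosphorylates eIF2 upon endoplasmic reticulum stress, was at 15.4 ± 4.95 CPM in non-cycling OPC-like cells and 4.83 ± 4.14 CPM in quiescent NSC-like cells, and was tested in none of the 10 comparisons.

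**Figure D4:**
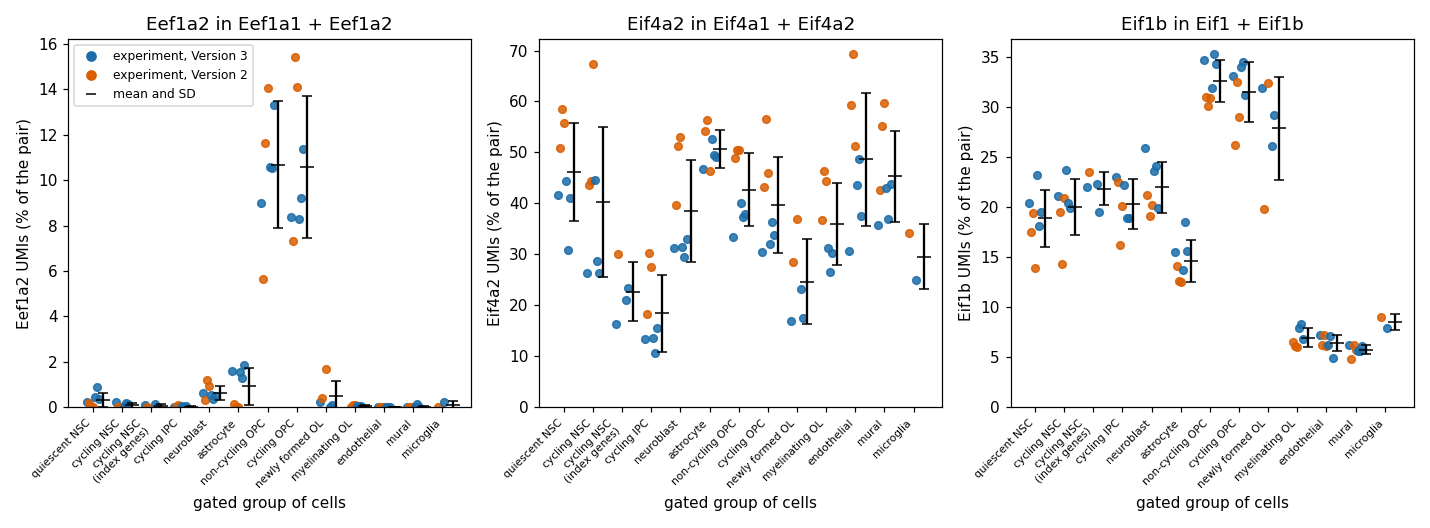
UMIs of Eef1a2, Eif4a2 and Eif1b as a percentage of those of the pair with Eef1a1, Eif4a1 and Eif1, by gated class (OL, oligodendrocyte), with points for experiments coloured by chemistry version and bars for the mean and SD. Eef1a2 is at 5.67% or more in OPC-like cells and at 1.87% or less in the other classes drawn, which do not include mature neuron-like cells. Eif1b is at 26.2% or more in OPC-like cells and at 8.29% or less in myelinating oligodendrocyte-like cells.

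Along the oligodendrocyte lineage, myelinating cells were compared with all OPC-like cells in 6 experiments, since the 1-month experiment held fewer than 10 myelinating cells. Of 45 members tested, 28 rose (62.2%, against 40.3% of all genes) and 8 fell (17.8%, against 40.6%) by edgeR's quasi-likelihood test with TMM scaling. The scaling decided many directions: by total UMIs 12 rose and 19 fell. Over all 4904 genes tested, 4253 were called by total UMIs, 1162 of them higher. The median of all genes moved from 0.00 to -0.49, and the share of all calls that were higher went from 49.8% to 27.3%. Under both scalings 12 members rose and 8 fell, and 8 called members had opposite signs. The counts under both scalings were not made over all genes.

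The 12 that rose under both were led by Eif4h, a helicase cofactor, from 166 ± 25.8 to 373 ± 33.0 CPM (1.67 ± 0.07 with TMM and 1.18 by total UMIs; edgeR adjusted p = 6.38e-10 and 1.99e-08). Eif1 went from 1434 ± 147 to 2760 ± 155 CPM (1.45 ± 0.08 and 0.95), and mural-like cells held a similar level, 2728 ± 224 CPM. Eef1a1 went from 1093 ± 163 to 2097 ± 434 CPM (1.43 ± 0.08 and 0.93) and Eef2 from 244 ± 88.5 to 431 ± 149 CPM (1.32 ± 0.07 and 0.82). Eif5, which triggers release of eIF2 at the start codon, had 1.03 ± 0.08 and 0.53. For these 5 genes the myelinating cells were the higher in 6 of 6 experiments.

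Eef1a2 fell by 6.28 ± 0.14 on the log2 scale with TMM (edgeR adjusted p = 1.76e-11) and had -6.76 by total UMIs. Its level was 75.3, 137 and 195 CPM in non-cycling OPC-like cells (7 experiments) and 0.383, 1.30 and 2.06 CPM in myelinating cells. The fit itself took all OPC-like cells, cycling ones included, of the 6 experiments. With Version 2 libraries alone Eef1a2 did not pass the filter. Eif4ebp2 fell by 1.61 ± 0.12 (53.7 ± 12.99 to 12.6 ± 2.45 CPM), Eif1b by 1.21 ± 0.07 (673 ± 57.0 to 207 ± 37.5 CPM), Eef1akmt1 by 1.23 ± 0.10 and Eif1a, which encodes a form of eIF1A, by 0.99 ± 0.12, each lower in 6 of 6 and called lower under both scalings. Of the Eif1 pair, one member thus rose and the other fell. Eif4a1 had 0.43 ± 0.07 with TMM but -0.06 by total UMIs, at 423 ± 77.9 and 404 ± 64.8 CPM, and Eif5a had 0.27 ± 0.07 with TMM but -0.23 by total UMIs, called in opposite directions. Of the 12 eIF3 subunits called higher with TMM, Eif3a, Eif3b, Eif3c, Eif3d, Eif3f, Eif3j1 and Eif3m were not called by total UMIs. Eif3i had 0.26 ± 0.09 with TMM and -0.23 by total UMIs. The OPC list was at 643 to 910 CPM in the myelinating cells, and its part in these values was not tested.

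**Figure D5:**
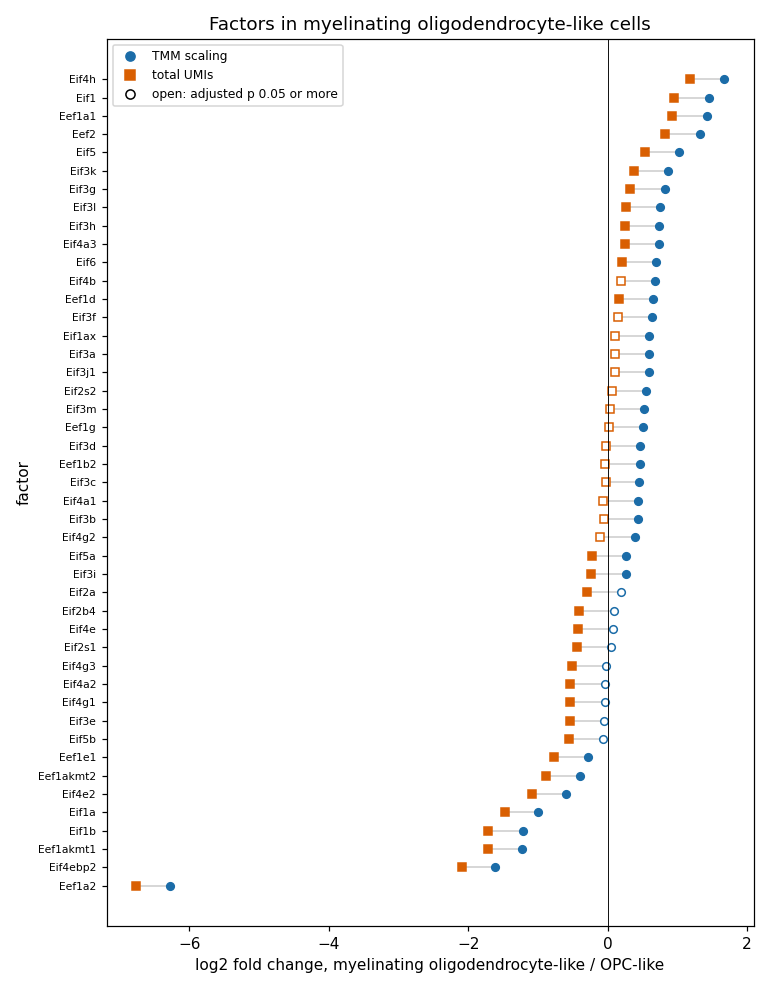
Log2 fold change (across) between myelinating oligodendrocyte-like and OPC-like cells for each of the 45 factors tested (1 line each), with TMM scaling as blue circles, total UMIs as orange squares, and open symbols where the adjusted p was 0.05 or more. With total UMIs the points lie further left, as the median of all genes moved from 0.00 to -0.49, so that 8 called factors had opposite signs, while Eef1a2, Eif4ebp2 and Eif1b stayed below 0 and Eif4h, Eif1 and Eef1a1 above 0 under both.

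Genes around the family came from 4 lists chosen for their place in the pathway. Between cycling and quiescent NSC-like cells by phase or index, 14.3% of all genes rose and 13.4% fell. There 2 of 6 tested poly(A)-binding and release factors rose, led by Pabpc1, the main poly(A)-binding protein (0.91 ± 0.15; edgeR adjusted p = 3.63e-05), and 1 of 4 genes of the MNK and hypusination list, Odc1, which makes the polyamine precursor of the eIF5A modification (1.42 ± 0.14; edgeR adjusted p = 1.24e-08). Atf4, the transcription factor of the integrated stress response, was the 1 gene of its list tested and rose by 0.53 ± 0.16. Among 6 mTORC1 genes Pdcd4, an inhibitor of eIF4A that is degraded after mTORC1 activation, had -0.21 ± 0.13 (edgeR adjusted p = 0.234). In the index-based comparison, where 22.2% of all genes rose and 21.6% fell, 1 of the 6 rose (Akt1, 0.57 ± 0.22) and 1 fell, Pdcd4 (-0.74 ± 0.13; edgeR adjusted p = 7.93e-06).

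In that comparison 3 of 6 stress response genes rose, with Asns, which makes asparagine, at 2.65 ± 0.36 (6.62 to 50.3 CPM) and Atf5 at 1.33 ± 0.22. Neither Asns nor Atf5 passed the filter between cycling and quiescent NSC-like cells by phase or index. In intermediate progenitor-like cells Asns rose by 3.62 ± 0.24, Odc1 by 2.59 ± 0.13 and Pabpc1 by 1.52 ± 0.13, and Pdcd4 fell by 1.84 ± 0.13. In neuroblast-like cells 5 of 6 poly(A)-binding and release factors, 2 of 3 stress response genes and 3 of 4 genes of the MNK and hypusination list rose, where 41.9% of all genes did. Of the 6 mTORC1 genes tested there, 3 rose and 2 fell, where 35.5% of all genes fell. In astrocyte-like cells Pdcd4 (-0.93 ± 0.12), Odc1 (-0.89 ± 0.19) and Pabpc1 (-0.52 ± 0.17) fell. In cycling OPC-like cells Pdcd4 fell by 0.31 ± 0.08, while Pabpc1 had 0.01 ± 0.07 and Odc1 0.30 ± 0.11 (edgeR adjusted p = 0.964 and 0.0683). The interaction test by phase or index called Asns (1.74 ± 0.39), Odc1 (1.15 ± 0.21) and Pabpc1 (0.98 ± 0.18) as larger in NSC-like cells. Asns passed the filter of that test only through the OPC-like cells, being too sparse in both NSC-like states.

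Levels of many members separated by chemistry, which cannot be told apart from age 2 months. Among members over 100 CPM with Version 3, the Version 2 and Version 3 experiments did not overlap for 9 of 26 in quiescent NSC-like cells (against 29% of all genes over that level), 12 of 31 in cycling intermediate progenitor-like cells (against 32.4%), 18 of 32 in neuroblast-like cells (against 40.5%) and 13 of 31 in non-cycling OPC-like cells (against 46.4%). The separation was shared with many other genes. In neuroblast-like cells Eif4a2 averaged 1117 CPM with Version 2 and 370.4 CPM with Version 3, and Eef2 2327 and 936 CPM. Eef1b2 went the other way, at 178 and 303 CPM in quiescent NSC-like cells. Comparisons were made within experiments, and the log2 fold change in neuroblast-like cells was 2.63 with Version 2 and 1.72 with Version 3 for Eef2, and 0.95 and 0.67 for Eif4a2. The cycling effect of Eef1a1 in NSC-like cells was 0.51 with Version 2 and 0.72 with Version 3. The family share of quiescent NSC-like cells was 1.04, 1.03 and 1.04% at 1, 2 and 6 months.

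The rest of the members were low. The 4 eIF2 kinases together were at 58.7 ± 8.03 CPM in quiescent NSC-like cells and 40.6 ± 7.62 CPM in neuroblast-like cells, and 1 of them passed the filter in the intermediate progenitor comparison without being called. A comparison of quiescent NSC-like cells with and without a recombined tdTomato reporter was not possible. A cell counted as recombined with more than 1 (Version 2) or 2 (Version 3) UMIs of the recombined reporter and fewer than 4 or 8 of the intact one, and 5 of these cells met that rule, at most 1 in an experiment, while 874 did not.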

How the data were processed

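The authors deposited whole-number UMI counts per gene and cell barcode for 8 libraries, merged without normalization, and cell barcodes (unit other) whose suffix names the library. The submitters' processing notes list cutadapt 1.18, Cell Ranger 3.0.2 and Seurat, and mm10 as the build. There were 0 per-sample columns that could not be mapped. Cells were filtered and typed by marker lists, and phases were scored with Seurat 5.3.0 (R 4.3.3). Counts were summed per experiment and class (at least 10 cells) and tested with edgeR 4.0.16 (quasi-likelihood, TMM, experiment as a block) over genes detected in 20% or more of the cells on one side, with Benjamini-Hochberg adjustment over all of them and a threshold of 0.05. DESeq2 1.42.0 was the alternative test. The procedure was tested on simulated data.

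The classes compared shared their animals within each experiment, so that experiments pair the samples, and deviations of paired sums correlated at 0.185 to 0.841. Library depth was 4861883 to 43826338 UMIs, and limits for counts of 0 cover counting error only. Members and lists were chosen with earlier results of these data known. Named members were 16 chosen genes, those called with the 6 largest changes in a comparison, and the highest of each role, plus, per pathway list, the 2 called genes with the largest changes. Eif2b3, Eif2b2 and any other gene outside this rule were named after their values were seen. Alternatives covered scaling, test, gene filter, marker gate, doublets, block, chemistry, cycling call and leaving out experiments.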

Additional observations from a re-analysis of the deposited data

Results flagged for a closer look

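For 11 members the effect of cycling differed between NSC-like and OPC-like cells, tested as an interaction term with edgeR's quasi-likelihood test and Benjamini-Hochberg adjustment over all genes. The difference of log2 fold changes, NSC-like minus OPC-like, was 0.86 for Eef1b2, 0.65 for Eef1a1, 0.64 for Eif1ax, 0.60 for Eif2s1, 0.57 for Eif3l, 0.57 for Eef2, 0.55 for Eif4e, 0.47 for Eif4a1, 0.46 for Eif3f, 0.45 for Eif3e and 0.41 for Eif3i. All 11 had the larger effect in NSC-like cells. The calls depended on single experiments, with 2 to 8 members called when 1 was left out. Over all genes 159 to 415 were then called, against 423 in the main fit.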

How the results depend on the processing

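With no replicate block (the experiment left out of the fit) the members called went from 18 to 0 for cycling NSC-like cells, from 2 to 0 for cycling OPC-like cells, from 11 to 0 for the interaction and from 20 to 10 for astrocyte-like cells. Over all genes the calls went, in the same order, from 1045 to 195, from 495 to 37, from 423 to 10 and from 1688 to 1120. For cycling NSC-like cells a stricter gate gave 3, Version 2 libraries 2 and index genes alone 29, and leaving out 1 experiment gave 10 to 19. Over all genes these fits called 299, 93, 2637 and 609 to 1082. For cycling OPC-like cells DESeq2, a looser gate and Version 2 libraries each gave 0, no share filter 1 (lower), phase alone 1 and doublets kept, an alternative chosen after seeing the data, 8, and leaving out 1 experiment gave 0 to 3. Over all genes these fits called 204, 477, 11, 1162, 473, 1276 and 152 to 566. For the interaction DESeq2 gave 4, no share filter 3, a stricter gate 2, a looser gate 23, doublets kept 6, Version 3 libraries 3, Version 2 libraries 0, phase alone 4 and index genes alone 22, and leaving out 1 experiment gave 2 to 8. Over all genes these fits called 284, 353, 40, 1130, 393, 347, 10, 393, 1764 and 159 to 415. Without an experiment the counts were 31 to 38 for myelinating, 18 to 20 for astrocyte-like, 31 to 35 for neuroblast-like and 30 to 38 for intermediate progenitor-like cells, and Version 2 libraries gave 19 for myelinating cells. Over all genes these fits called 3085 to 4249, 1341 to 1684, 2893 to 3715, 3332 to 4035 and 1859. The cause was not tested, although Version 2 fits had 3 experiments and fewer genes.

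Of single members, Eef1b2 (-0.0309), Eif4a1 (-0.0627) and Eif5a (-0.23) turned sign in myelinating cells by total UMIs, Eif5a (-0.11) also with Version 2 libraries, and Eif1ax (-0.20) in the interaction with Version 2 libraries. Over 84 named results, 1183 values under alternatives kept their direction and side of the threshold, 203 lost the call and 5 turned. The family share of index-called cycling NSC-like cells was 1.45% with a stricter gate, 1.68% with a looser gate and 1.53% as a mean over cells, and that of newly formed oligodendrocyte-like cells was 1.27% with a stricter gate. The tdTomato comparison was not run under any alternative. Of the members, 29 passed the share filter for cycling NSC-like cells with Version 2 libraries, 48 with Version 3 libraries and 42 with both, and the part of depth in this was not tested.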
